A study of Mus musculus with 21 samples.

Results

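Endoplasmic reticulum (ER) stress response genes were examined by RNA-seq in punches of the mouse circumventricular hypothalamus, the ventral part of the hypothalamus around the third ventricle. The 36 genes were chosen by symbol, and all 36 were found among the 21654 genes of the deposited table, each once. They were 15 chaperones and folding enzymes of the ER lumen and membrane, 7 sensors and transcription factors, 6 genes of ER-associated degradation, and 8 targets of the transcription factor ATF4 or feedback regulators. Of these, 35 averaged at least 50 reads per library and were tested, and Trib3, with a mean of 16.8 reads, was not.

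The study set body weight apart from diet and energy balance, which its design cannot tell from each other. Male mice of strain C57/BL6 (C57/B6J in the growth notes), 12 to 14 weeks old when acquired, received regular chow (RC) or a high-fat diet (HFD) for several weeks, after which some were switched to the other diet and their tissue was collected a week after the switch. All mice, whatever their diet, were kept awake with unfamiliar objects for 3 hours before collection at ZT6, the middle of the light phase, so no group without sleep deprivation was available. Each library was made from polyA RNA of 2 pooled mice of the same condition. RC NoDS (RC Only in the labels, no diet switch) had 5 libraries, RC → HFD (chow, then a week of HFD) had 6, HFD → RC (HFD, then a week of chow) had 5 and HFD NoDS (HFD Only) had 5. Replicate numbers ran from 1 to 24 across the groups and did not pair libraries.

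When unfolded proteins accumulate in the ER lumen, the sensors encoded by Ern1 (IRE1), Eif2ak3 (PERK) and Atf6 start the unfolded protein response. IRE1 splices Xbp1 mRNA, PERK phosphorylates eIF2α and thereby slows translation while that of ATF4 increases, and ATF6 is cut in the Golgi, so that chaperones, degradation genes and, if stress persists, genes such as Ddit3 (CHOP) are transcribed. In the hypothalamus of rodents, ER stress has been studied as a companion of high-fat feeding and of leptin and insulin resistance, and prolonged wakefulness is known to induce Hspa5 (BiP) in brain. Splicing of Xbp1, phosphorylation and cleavage are not measured by reads per gene.

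The tissue was checked against markers. All 10 markers of the ventral hypothalamus averaged at least 50 reads, with summed reads of 15241 to 25310 per library and Pomc the most abundant, and all 10 neuronal markers did so as well, with sums of 71911 to 87270 and Eno2 the most abundant. The 10 choroid plexus and ependymal markers summed to 2587 to 3988 reads per library. Of these, Ttr had 0 to 74 reads, Clic6 718 to 997, and Foxj1, the most abundant, 730 to 1472. The reads of a library summed to between 16380781 and 16390598, since the authors had re-sampled all libraries to a common depth. The libraries differed in complexity, measured as the percentage without a single read among 3116 weakly expressed genes (means from 5 up to 50 reads). This complexity share was 1.12% to 7.22% in RC NoDS, 2.31% to 22.4% in RC → HFD, 5.68% to 31.9% in HFD → RC and 7.70% to 32.9% in HFD NoDS, so that each HFD NoDS library had a higher share than each RC NoDS library. It was above 20% in RC → HFD replicate 12, HFD → RC replicates 14 and 17 and HFD NoDS replicate 20, and the results were computed again without these libraries and with the share as a covariate, the former chosen after seeing the data. In such bulk punches, fewer cells of a type and less RNA per cell cannot be told apart.

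None of the 35 ER stress response genes passed the test in any comparison of diet groups. Ppp1r15a (GADD34), which returns phosphorylated eIF2α to its active state, averaged 337 ± 41.1 reads (SD, n = 5) in RC NoDS and 456 ± 69.0 (n = 5) in HFD NoDS. Sdf2l1, a partner of the chaperone BiP, averaged 389 ± 29.6 and 496 ± 80.3 reads in these groups. Atf3, a stress-induced transcription factor, averaged 32.2 ± 13.2 reads in RC NoDS and 91.8 ± 51.1 in HFD NoDS, and the switched groups averaged 47.7 ± 26.1 (RC → HFD, n = 6) and 47.6 ± 12.3 (HFD → RC, n = 5). Its mean over all libraries, 54.5, passed the filter of 50 reads only through HFD NoDS, so its place among the tested members depends on the group in which it was high. The chief chaperone BiP itself (Hspa5) averaged 11198 ± 1463 reads in RC NoDS, 10512 ± 1049 (n = 6) in RC → HFD, 10695 ± 1493 in HFD → RC and 10513 ± 1488 in HFD NoDS.

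Counts of genes were obtained with edgeR's quasi-likelihood test, with 1 mean for each of the 4 groups and Benjamini-Hochberg adjustment over the 12768 genes averaging at least 50 reads, and a gene was called at an adjusted p under 0.15. For RC NoDS v HFD NoDS, the obesity comparison, 0 of 35 members and 0.0783% of all genes (10 genes) were called. Before adjustment, 4 members (11.4%) had a p under 0.05, all of them higher in HFD NoDS, against 7.41% of all genes. Atf3 is 1 of these 4, and since it passed the filter through HFD NoDS, its direction here is not independent of the filter. The same holds where Atf3 is counted in the comparisons of HFD NoDS with HFD → RC, of current diet, of earlier diet and of all groups. For the weight-matched groups RC → HFD v HFD → RC, 0 members and 0.00783% of all genes were called, and 2 members (5.71%) had an unadjusted p under 0.05 against 5.35% of all genes. A week of HFD after chow (RC NoDS v RC → HFD) gave 0 members and 0.0392% of all genes, with 2 members (5.71%) under 0.05 against 6.51%. A week of chow after HFD (HFD NoDS v HFD → RC) gave 0 members and 0.0705% of all genes, with 4 members (11.4%) under 0.05 against 7.93%. For the current diet, averaged over both earlier diets, 0 members and 0.047% of all genes were called, and 3 members (8.57%) were under 0.05 against 5.22%. For the earlier diet the values were 0 members, 0.0705% of all genes, and 2 members (5.71%) under 0.05 against 7.27%. The interaction of current and earlier diet gave 0 members and 0.0313% of all genes, with 2 members (5.71%) under 0.05 against 8.84%. The test of any difference among the 4 groups gave 0 members and 0.149% of all genes, with 4 members (11.4%) under 0.05 against 7.97%. These comparisons share groups and are not independent of each other.

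DESeq2, limma-voom and limma-trend also called 0 members in each of the 8 comparisons. In the same order of comparisons, edgeR called 10, 1, 5, 9, 6, 9, 4 and 19 of all 12768 genes, DESeq2 17, 5, 96, 44, 12, 32, 116 and 133, limma-voom 10, 1, 5, 12, 8, 3, 15 and 13, and limma-trend 9, 1, 4, 9, 6, 3, 2 and 11. By comparison, the members with an unadjusted p under 0.05 numbered 4, 2, 2, 4, 3, 2, 2 and 5 with DESeq2, 4, 2, 2, 3, 2, 2, 2 and 4 with limma-voom, and 3, 1, 2, 3, 2, 1, 3 and 3 with limma-trend. Over all tested genes, the numbers under the same p were 946, 683, 831, 1013, 666, 928, 1129 and 1018 with edgeR and 1004, 733, 857, 1080, 709, 998, 1192 and 1192 with DESeq2. They were 982, 664, 858, 1053, 702, 944, 1172 and 1040 with limma-voom and 982, 674, 850, 1051, 677, 905, 1179 and 1016 with limma-trend. The smallest adjusted p of a member with edgeR was 0.419, that of Derl2 in the interaction. Among all settings tried, the smallest was 0.158, for the same gene and contrast without the 4 libraries of low complexity.

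The fitted log2 fold changes of the 35 members were centred near those of all genes. In HFD NoDS relative to RC NoDS, 21 were positive and 14 negative, with a median of 0.045 against 0.0065 for all genes tested. Between the switched groups (HFD → RC minus RC → HFD), 18 were positive, with a median of 0.016 against 0.00012. In RC → HFD relative to RC NoDS, 18 were positive, with a median of 0.0095 against −0.00094. In HFD → RC relative to HFD NoDS, 16 were positive, with a median of −0.011 against 0.0047. Medians were −0.011 for the current diet and 0.016 for the earlier diet (all genes −0.00078 and 0.0031). For the interaction, 23 of 35 were positive and the median was 0.054 against −0.0040, and with the complexity share as a covariate it was −0.036. No test was made of these medians, and some of them changed sign when single libraries were left out.

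**Figure D1:**
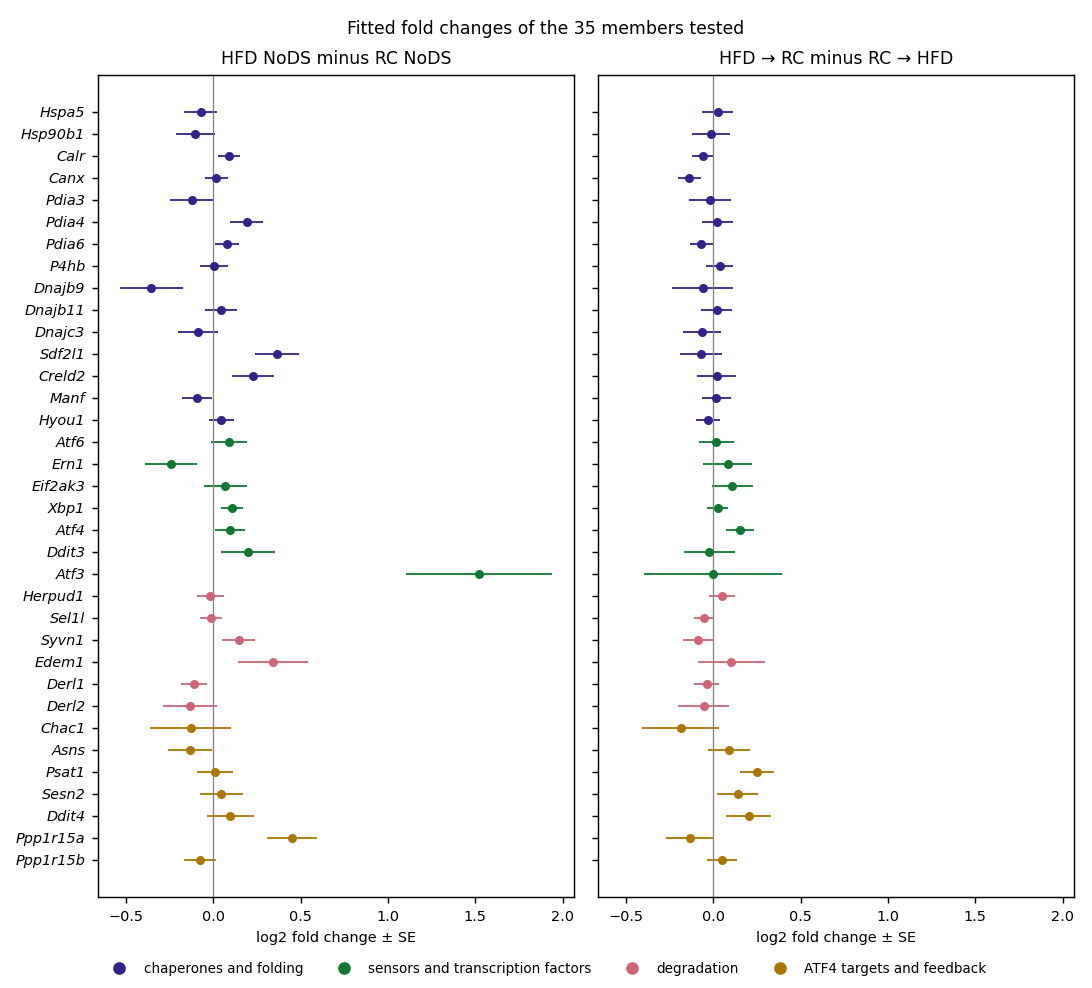
Log2 fold change (x axis, ± SE) fitted by edgeR for each of the 35 members tested (y axis, grouped and coloured by role) in HFD NoDS relative to RC NoDS (left) and as HFD → RC minus RC → HFD (right), comparisons that share no library. Atf3 lies at 1.52 on the left and at −0.0019 on the right, and all other members lie within 0.5 of 0 in both.

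The members differed widely in level, compared here as reads per kilobase of exonic length. Hspa5 had the highest mean, 3051 ± 368 reads per kilobase (SD over 21 libraries), followed by Calr (2971 ± 196), Hsp90b1 (1992 ± 286), Pdia3 (1765 ± 280), Canx (1719 ± 144), P4hb (1372 ± 123), Atf4 (1334 ± 130) and Pdia6 (1110 ± 75.4). The means of Hspa5 and Calr differed by less than the SD of Hspa5. The sensors were low, with 96.8 reads per kilobase for Eif2ak3, 92.5 for Atf6 and 66.4 for Ern1. The lowest tested was Atf3 (27.5), and Trib3 had 7.91. The median member tested had 450 reads per kilobase against 146 for all genes tested, and by role the medians were 737 for chaperones and folding enzymes, 96.8 for sensors and transcription factors, 371 for degradation genes and 213 for ATF4 targets and feedback genes.

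The spread between libraries of the same group was narrow for many members. The within-group SD of log2 CPM had a median of 0.17 over the members and 0.22 over all genes tested. It was lowest for Xbp1 (0.075) and Sel1l (0.082) and highest among tested members for Atf3 (0.71), Chac1 (0.35), Edem1 (0.34) and Dnajb9 (0.33). Chaperones had a median of 0.14, degradation genes 0.13, sensors and transcription factors 0.18, and ATF4 targets and feedback genes 0.21. The members tested also had a higher level than all genes tested (medians of 450 and 146 reads per kilobase). Their spread was not compared with that of genes of similar level.

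**Figure D2:**
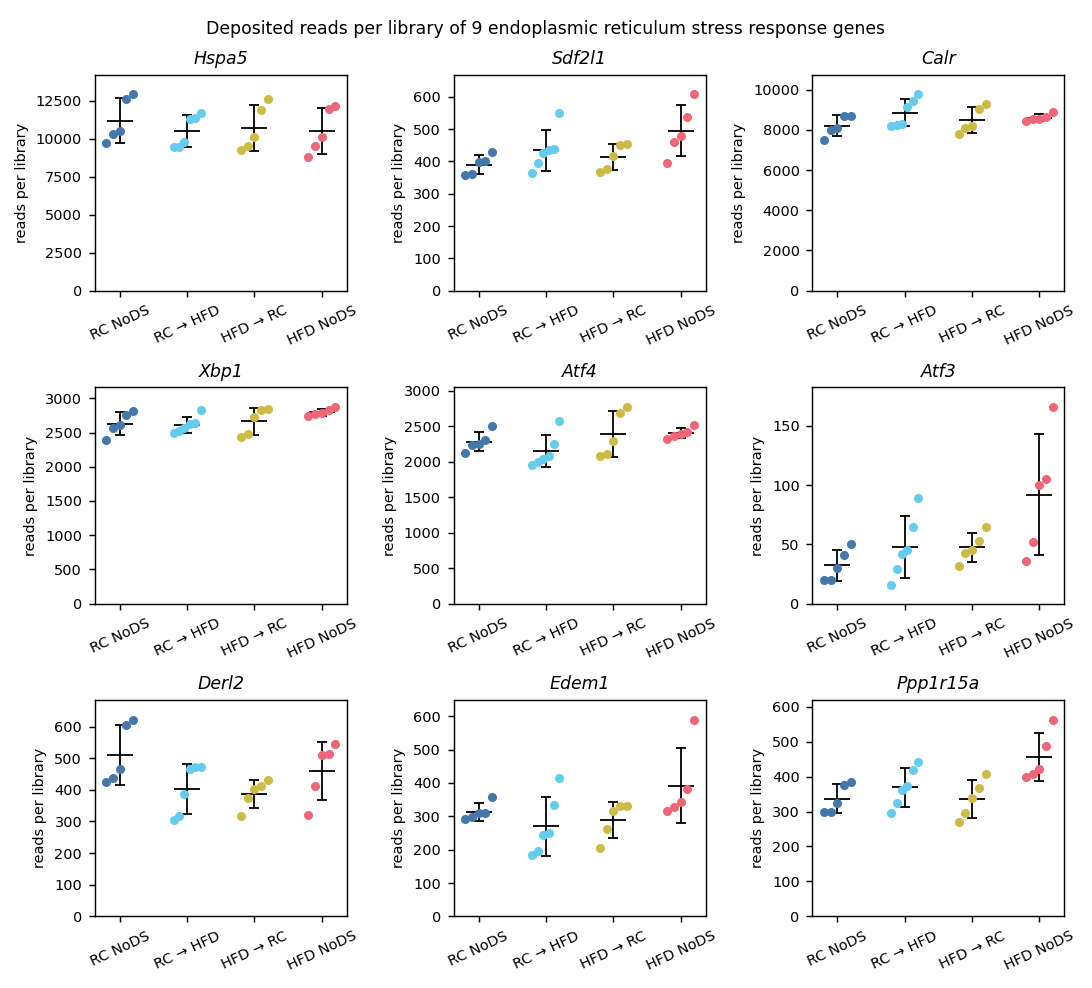
Deposited reads per library (y axis, points) of 9 members in the 4 diet groups (x axis), with the group mean and SD as black bars and replicates in ascending order within a group. Ppp1r15a had 399 to 562 reads in HFD NoDS and 298 to 383 in RC NoDS, and for Hspa5 the groups overlapped.

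Among the chaperones, Hspa5 (ENSMUSG00000026864, chr2:34627490-34632051, NCBIM37, plus strand) encodes BiP, the HSP70 of the ER lumen that also holds the sensors inactive. RC NoDS replicates 1, 2, 3, 5 and 6 had 12932, 12594, 10292, 10484 and 9690 reads. HFD NoDS replicates 19, 20, 21, 23 and 24 had 9517, 8823, 10094, 12161 and 11969. In HFD → RC, replicates 13 to 17 had 9543, 9253, 10140, 12616 and 11923. Each of these groups held low and high libraries side by side, and the groups overlapped over most of their range. RC → HFD ran from 9445 to 11685 with a median of 10564. The log2 fold change in HFD NoDS relative to RC NoDS was −0.074 (SE 0.094, adjusted p = 0.849). With the complexity share as a covariate it was 0.019, and with single libraries left out it ran from −0.128 to −0.0209.

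Sdf2l1 (ENSMUSG00000022769, chr16:17130231-17132476) encodes a small resident protein that works with BiP and its J-domain partners. Its reads were 428, 398, 358, 402 and 361 in RC NoDS, and 536, 396, 478, 608 and 460 in HFD NoDS. The HFD → RC group had 366, 377, 454, 416 and 452, and RC → HFD libraries 363 to 551 with a median of 430. Of the HFD NoDS libraries, 4 lay above every RC NoDS library, and replicate 20, at 396, lay inside the RC NoDS range. Between these groups the log2 fold change was 0.37 (SE 0.13), which did not pass the adjustment (adjusted p = 0.640). It was 0.41 with the complexity covariate and 0.43 without the libraries of low complexity. For the current diet it was 0.22 (SE 0.087, adjusted p = 0.892).

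Calr (ENSMUSG00000003814, chr8:87365749-87370833) and Canx (ENSMUSG00000020368, chr11:50107969-50139175) encode calreticulin and calnexin, the lectin chaperones that fold glycoproteins. Calr had 8092, 7499, 8004, 8714 and 8718 reads in RC NoDS and 8220 to 9782 in RC → HFD (median 8715). Replicates 7, 9 and 12 of RC → HFD lay above every RC NoDS library, the other 3 lay within the RC NoDS range, and the log2 fold change was 0.14 (SE 0.060, adjusted p = 0.711). In HFD → RC the reads of Calr were 8178, 9059, 8113, 7796 and 9312, and in HFD NoDS 8556, 8433, 8640, 8894 and 8567, the narrowest group. Canx had 6271, 6595, 6700, 7082 and 7038 reads in HFD → RC and 6738 to 8003 in RC → HFD (median 7365). Replicate 13 of HFD → RC was the lowest of that group, 3 of its libraries lay below every RC → HFD library, and the log2 difference (HFD → RC minus RC → HFD) was −0.14 (SE 0.065, adjusted p = 0.925). RC NoDS libraries had 7895, 7833, 6775, 7461 and 6531 reads of Canx, and HFD NoDS libraries 6594, 6223, 7990, 7849 and 7855.

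The other chaperones and folding enzymes showed smaller or more variable differences. Over the 15 genes of this role the fold changes in HFD NoDS relative to RC NoDS ran from −0.36 (Dnajb9, a BiP co-chaperone, SE 0.18, adjusted p = 0.667) to 0.37 (Sdf2l1), with 9 positive, 6 negative and a median of 0.018. Pdia4, a protein disulfide isomerase, was the other chaperone with an unadjusted p under 0.05 (0.19, SE 0.093), and Creld2 had 0.23 (SE 0.12, adjusted p = 0.672). Hsp90b1 (GRP94) and Pdia3 (ERp57) had −0.10 and −0.12. As HFD → RC minus RC → HFD, the 15 ran from −0.14 to 0.035 with 6 positive and a median of −0.018. A week of HFD gave −0.23 to 0.18 (median 0.038) and a week of chow −0.26 to 0.10 (median −0.011). Pdia6, P4hb, Dnajb11, Dnajc3, Manf and Hyou1, which encode disulfide isomerases, J-domain co-chaperones, a secreted neurotrophic factor and a large HSP70-like chaperone, had no unadjusted p under 0.05 in any of the comparisons.

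Among the sensors and transcription factors, Atf3 (ENSMUSG00000026628, chr1:192994175-193007219) encodes a stress-induced factor of the ATF/CREB family that acts downstream of ATF4 and of other pathways. It had 41, 20, 20, 50 and 30 reads in RC NoDS and 100, 52, 36, 166 and 105 in HFD NoDS. In HFD → RC, Atf3 had 45, 65, 43, 32 and 53 reads, and RC → HFD libraries 16 to 89 with a median of 43.5. Replicate 23 of HFD NoDS was the highest of all libraries, 4 of the 5 HFD NoDS libraries lay above every RC NoDS library, and replicate 21, at 36, overlapped them. The log2 fold change in HFD NoDS relative to RC NoDS was 1.52 (SE 0.42, adjusted p = 0.607), for a gene that passed the filter only through HFD NoDS. Among genes averaging at least 5 reads, a filter it passed in every group, it was 1.52 (SE 0.44, adjusted p = 0.590). It was 1.68 with the complexity covariate, 1.66 without the libraries of low complexity, and 1.20 to 1.74 with single libraries left out. In HFD → RC relative to HFD NoDS, a comparison that shares the HFD NoDS libraries, it was −0.94 (SE 0.41, adjusted p = 0.585), and −0.62 without HFD NoDS replicate 23. For the current diet and for the earlier diet the estimates were both 0.76 (SE 0.29, adjusted p = 0.892 and 0.604). Between the switched groups (HFD → RC minus RC → HFD) it was −0.0019 (SE 0.40), 0.090 with the covariate and −0.35 without the libraries of low complexity.

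Atf4 (ENSMUSG00000042406, chr15:80085614-80087970) encodes the factor whose translation increases when eIF2α is phosphorylated. It had 2498, 2253, 2118, 2314 and 2239 reads in RC NoDS and 2395, 2524, 2328, 2369 and 2423 in HFD NoDS. HFD → RC libraries had 2116, 2685, 2295, 2081 and 2772 reads of Atf4, and RC → HFD libraries 1950 to 2571 with a median of 2066. All groups overlapped, and the high HFD → RC libraries were replicates 14 and 17, which were of low complexity. As HFD → RC minus RC → HFD, its log2 difference was 0.15 (SE 0.080, adjusted p = 0.962). It was −0.010 without the libraries of low complexity and 0.096 without HFD → RC replicate 17. For the earlier diet it was 0.12 (SE 0.058, adjusted p = 0.678), which became 0.029 without those libraries and 0.060 with the covariate.

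Xbp1 (ENSMUSG00000020484, chr11:5420662-5425896) encodes the factor made active when IRE1 removes an intron from its mRNA. RC NoDS libraries had 2820, 2612, 2390, 2564 and 2755 reads of it, HFD NoDS libraries 2783, 2737, 2773, 2873 and 2823, and HFD → RC libraries 2431, 2721, 2480, 2837 and 2842. RC → HFD ran from 2500 to 2823 with a median of 2595. In reads, HFD NoDS libraries were tightly placed at the upper end of the RC NoDS range, which they overlapped. In TMM-normalized CPM, every HFD NoDS library (169.007 to 174.557) was above every RC NoDS library (145.082 to 168.889), though by a narrow gap. The log2 fold change was 0.11 (SE 0.063, adjusted p = 0.686). With the complexity covariate it was 0.064.

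Ddit3 (ENSMUSG00000025408, chr10:126727830-126733344), which encodes the pro-apoptotic factor CHOP, had 393, 381, 371, 347 and 412 reads in RC NoDS and 358, 478, 437, 406 and 480 in HFD NoDS. The HFD → RC libraries held 504, 557, 411, 363 and 318 and RC → HFD libraries 304 to 518 (median 475). RC NoDS libraries were close together, the switched groups spread to both sides of them, and HFD NoDS overlapped them from above. The log2 fold change in HFD NoDS relative to RC NoDS was 0.20 (SE 0.15, adjusted p = 0.753). The sensors Ern1, Eif2ak3 and Atf6 had −0.24, 0.068 and 0.092 in that comparison and no unadjusted p under 0.05 in any. Over the 7 genes of this role, the log2 differences between the switched groups (HFD → RC minus RC → HFD) ran from −0.023 to 0.15 with 5 positive.

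Of the genes of ER-associated degradation, Derl2 (ENSMUSG00000018442, chr11:70820666-70833343) encodes a derlin, a membrane protein of the channel through which misfolded proteins leave the ER. It had 621, 604, 465, 437 and 424 reads in RC NoDS and 411, 320, 511, 513 and 544 in HFD NoDS. HFD → RC libraries had 317, 430, 403, 375 and 412 reads of Derl2, and RC → HFD libraries 306 to 473 with a median of 425.5. The switched groups thus had no library above 473, while 2 RC NoDS and 3 HFD NoDS libraries were above it, and all groups overlapped. The interaction of current and earlier diet was 0.55 (SE 0.21, adjusted p = 0.419) on the log2 scale. It was 0.39 with the complexity covariate and 0.67 (adjusted p = 0.158) without the libraries of low complexity. In RC → HFD relative to RC NoDS the log2 fold change was −0.31 (SE 0.15, adjusted p = 0.743), and −0.19 with the covariate.

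Derl1 (ENSMUSG00000022365, chr15:57701057-57723973), the other derlin listed, had 2321, 2260, 2132, 2012 and 1975 reads in RC NoDS and 1607 to 2178 in RC → HFD (median 1934). HFD → RC libraries had 1949, 1921, 1872, 1938 and 1652 and HFD NoDS libraries 1881, 1824, 2053, 2076 and 1950. Of the RC → HFD libraries 5 lay below every RC NoDS library, and replicate 9 did not. Their log2 fold change was −0.13 (SE 0.071, adjusted p = 0.803), and −0.076 with the complexity covariate. Its interaction was 0.19 (SE 0.10, adjusted p = 0.605).

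Edem1 (ENSMUSG00000030104, chr6:108778635-108809350) encodes a lectin-like protein that sends misfolded glycoproteins to degradation. It had 299, 309, 291, 309 and 359 reads in RC NoDS and 316, 589, 381, 344 and 328 in HFD NoDS. After the switch to chow, libraries had 315, 263, 331, 331 and 206 reads of Edem1, and RC → HFD libraries 183 to 414 with a median of 246.5. HFD NoDS replicate 20, a library of low complexity, was far above all others, and the remaining HFD NoDS libraries overlapped RC NoDS. The interaction was 0.63 (SE 0.28, adjusted p = 0.498), and 0.18 (SE 0.25) without the libraries of low complexity. Edem1 in HFD → RC relative to HFD NoDS had a log2 fold change of −0.43 (SE 0.20, adjusted p = 0.613), which was −0.23 without HFD NoDS replicate 20 and −0.056 without the libraries of low complexity. Herpud1, Sel1l and Syvn1, which encode a membrane adaptor, a scaffold and the ubiquitin ligase HRD1 of the same complex, had no unadjusted p under 0.05 in any comparison. Over the 6 degradation genes the interaction was positive for 5, with a median of 0.16 and a range of −0.16 to 0.63.

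Among ATF4 targets and feedback genes, Ppp1r15a (ENSMUSG00000040435, chr7:52778286-52781638) did not overlap between RC NoDS and HFD NoDS, in reads or in CPM. It had 300, 298, 325, 383 and 377 reads in RC NoDS and 407, 399, 422, 488 and 562 in HFD NoDS. Every HFD NoDS library was above every RC NoDS library, as in either direction for 0.893% of the 12768 genes tested, and in reads this held for 1 of the 35 members. In CPM it held for 2 members, Ppp1r15a and Xbp1, and for 0.963% of all genes. HFD → RC libraries had 271, 408, 368, 295 and 339 reads of Ppp1r15a, and RC → HFD libraries 295 to 442 with a median of 368. Of the HFD → RC libraries only replicate 14, at 408, reached the HFD NoDS range. No member was free of overlap on either scale in RC → HFD v HFD → RC (0.486% of all genes were in reads and 0.47% in CPM), in RC NoDS v RC → HFD (1.17% and 1.15%) or in HFD NoDS v HFD → RC (1.02% and 0.971%). For Ppp1r15a the log2 fold change in HFD NoDS relative to RC NoDS was 0.45 (SE 0.14, adjusted p = 0.640), and 0.50 with the complexity covariate. Against HFD NoDS, whose libraries are shared, HFD → RC had −0.43 (SE 0.14, adjusted p = 0.502). For the current diet it was 0.29 (SE 0.099, adjusted p = 0.769). Ppp1r15b, the constitutive counterpart that also targets eIF2α phosphatase, had −0.076 in HFD NoDS relative to RC NoDS and no unadjusted p under 0.05 in any comparison.

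Psat1 (ENSMUSG00000024640, chr19:15979168-16021827) encodes an enzyme of serine synthesis. HFD → RC libraries had 1749, 1833, 1479, 1524 and 1824 reads of it, and RC → HFD libraries 1230 to 1583 with a median of 1389. Replicates 13, 14 and 17 of HFD → RC lay above every RC → HFD library, and the other 2 lay inside that range. RC NoDS libraries had 1480, 1489, 1537, 1313 and 1338 reads of Psat1, and HFD NoDS libraries 1166, 1666, 1237, 1738 and 1295. The log2 difference of Psat1 (HFD → RC minus RC → HFD) was 0.25 (SE 0.097, adjusted p = 0.899). Without the libraries of low complexity, which include 2 of those 3, it was 0.16. Against HFD NoDS, the HFD → RC value was 0.25 (SE 0.10, adjusted p = 0.546). For the earlier diet it was 0.13 (SE 0.070, adjusted p = 0.739), and 0.046 without those libraries.

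Trib3 (ENSMUSG00000032715, chr2:152163158-152169768), a pseudokinase gene induced by ATF4 and CHOP, was near the limit of detection, with 12, 10, 16, 8 and 14 reads in RC NoDS and 12, 35, 16, 8 and 14 in HFD NoDS. Of the switched groups, HFD → RC had 46, 26, 12, 0 and 24 reads of Trib3, and RC → HFD had 0 to 47 with a median of 8.5. The libraries at 0 were HFD → RC replicate 16 and RC → HFD replicate 12, and all groups overlapped. When genes averaging at least 5 reads were tested, its log2 fold change in HFD NoDS relative to RC NoDS was 0.52 (SE 0.91, adjusted p = 0.941). Asns, which makes asparagine, Chac1, which degrades glutathione, and Sesn2 and Ddit4, which restrain mTORC1, had fold changes of −0.13, −0.13, 0.045 and 0.097 between the same groups and no unadjusted p under 0.05 in any.

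Several of these genes overlap others in the NCBIM37 annotation. Ddit3 overlaps Mars and RP24-341K21.6, Derl2 overlaps Mis12, Hsp90b1 overlaps 1810014B01Rik, Pdia3 overlaps Catsper2, Pdia6 overlaps Atp6v1c2, Ppp1r15a overlaps Tulp2, Psat1 overlaps Gm3329, Syvn1 overlaps Mrpl49 and Herpud1 overlaps Gm15890, all on the opposite strand, and Manf overlaps Vprbp on the opposite and Rbm15b on its own strand. Small or predicted genes on the same strand lie within Hsp90b1 (Gm15344, AC152453.1), Pdia4 (Mir704), Atf6 (U6), Eif2ak3 (SNORA5) and Sesn2 (Gm12981). The library kit marks strand, but whether the counting used it was not stated in the sources used here, so the values of these genes are uncertain to the extent that reads were shared.

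Members were then compared across the 21 libraries within groups, as log2 CPM (0.5 added) with each group's mean removed. Hspa5 and Hsp90b1, the HSP70 and HSP90 of the ER lumen, varied together closely. Pearson's r was 0.921 and Spearman's rho 0.906, each with a permutation p of 1e-05, the smallest that 100000 permutations can give (adjusted over 16 relations 0.00016). Without HFD → RC replicate 16 and HFD NoDS replicate 23, the libraries farthest from the median of Hspa5, r was 0.903 (permutation p = 1e-05), and after removal of the complexity share it was 0.914. Hspa5 and Sdf2l1 had r = 0.416 (p = 0.0806, adjusted p = 0.323) and rho = 0.483 (p = 0.0440, adjusted p = 0.352). Their r was 0.261 without the libraries of low complexity. With single libraries left out it was 0.317 to 0.561 (smallest adjusted permutation p 0.111). The other 8 relations of Hspa5, with Calr, Pdia4, Pdia6, Manf, Creld2, Dnajb11, Hyou1 and Herpud1, had r of −0.218 to 0.350 with adjusted p of 0.38 or more.

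Atf4 and Sesn2 had r = 0.551 (permutation p = 0.0152, adjusted p = 0.122) and rho = 0.426 (p = 0.0727, adjusted p = 0.388). Without RC → HFD replicate 11 and HFD → RC replicate 17, the libraries farthest from the median of Atf4, r was 0.476 (permutation p = 0.107). It was 0.456 to 0.627 with single libraries left out and 0.225 without the 4 libraries of low complexity. Atf4 and Asns had r = −0.505 (p = 0.0402, adjusted p = 0.215) and rho = −0.405 (p = 0.107). That value fell in size to −0.194 without the 2 farthest libraries, and Asns itself had r = −0.813 with the complexity share within groups. Trib3 had r = 0.482 with Atf4 (p = 0.119, adjusted p = 0.38), which was 0.316 without the 2 farthest libraries, 0.548 after removal of the complexity share, 0.252 without the libraries of low complexity and 0.312 to 0.652 with single libraries left out. Of the others, Chac1, Psat1 and Ddit3 had r of 0.0961 to 0.325 with adjusted p of 0.38 or more. Without the libraries of low complexity, r was 0.393 for Chac1, −0.397 for Psat1 and 0.0744 for Ddit3.

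**Figure D3:**
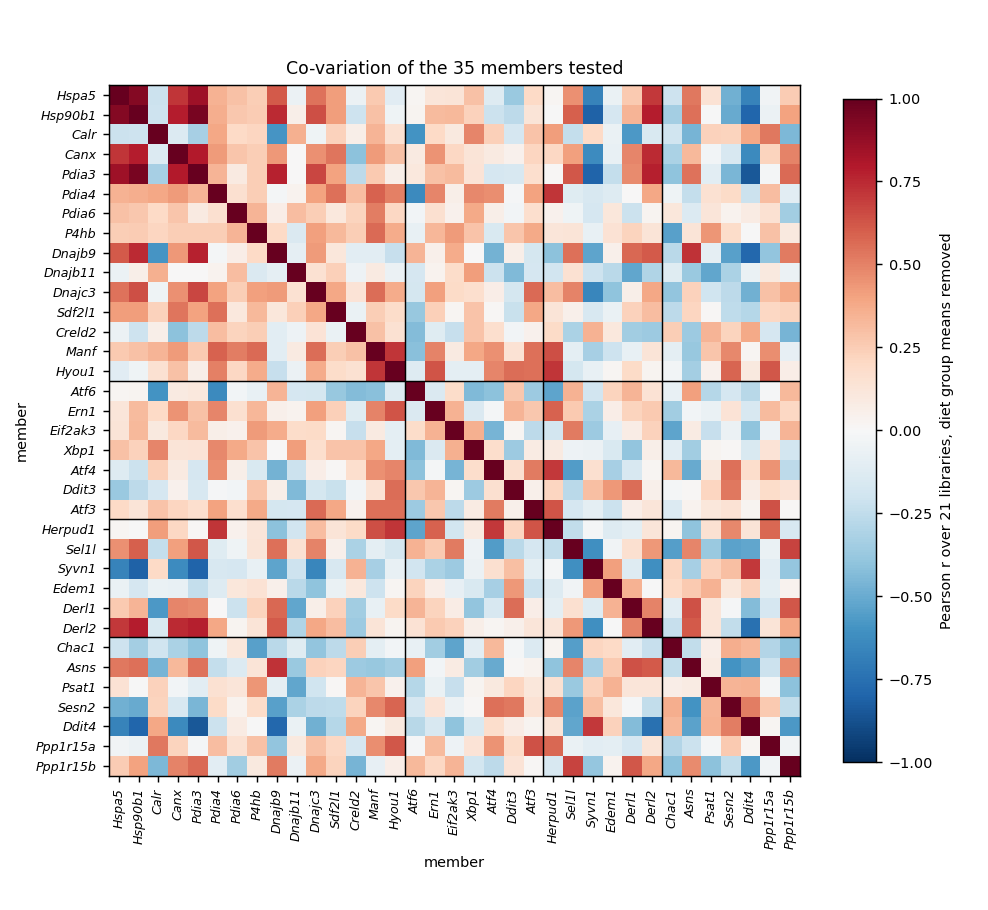
Pearson's r between each pair of the 35 members tested (both axes, in order of role, black lines between roles) over 21 libraries after removal of diet group means, from −1 (blue) to 1 (red). A block of high r joins Hspa5, Hsp90b1, Canx, Pdia3 and Derl2, and Ddit4 and Syvn1 are negative against it (Pdia3 with Ddit4 −0.849).

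As a description over all 595 pairs of tested members, the median r was 0.0902 and 360 pairs were positive. Pairs of chaperones had a median of 0.248, with 83 of 105 positive. Hsp90b1 and Pdia3 had the highest r (0.951), and Canx and Pdia3 (0.793), Hsp90b1 and Derl2 (0.787) and Hyou1 and Herpud1 (0.716) were also high. Pdia3 and Ddit4 (−0.849) and Hsp90b1 and Syvn1 (−0.809) were the lowest of their pairs. Pairs of degradation genes had a median of −0.0189, and pairs of ATF4 targets and feedback genes −0.0210. The complexity share moved with several members within groups. The r largest in size were −0.813 for Asns, −0.601 for Dnajb9, −0.559 for Derl1, −0.545 for Derl2, −0.521 for Pdia3, −0.511 for Sel1l, −0.507 for Ppp1r15b, −0.495 for Hsp90b1, 0.505 for Syvn1 and 0.538 for Ddit4. The median r was −0.154 over members and −0.0193 over all genes. The part of the complexity share in these pairs was not tested beyond the values given.

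The genes most like Hspa5 among the 12767 others were Hspa4 (r = 0.953), Hsp90b1, Mgea5 (0.910), Atf2 (0.902), Paip1 (0.897), Senp6 (0.895), Hsp90aa1 (0.891), Yme1l1 (0.884), A730017C20Rik (0.876) and Ssr1 (0.873). Hspa4 and Hsp90aa1 encode cytosolic chaperones, and Ssr1 encodes a subunit of the translocon-associated complex of the ER. Pdia3 ranked 20 (r = 0.846). Of the 34 other tested members, 7 (20.6%) had r over 0.5 with Hspa5, against 12.7% of all genes. After removal of the complexity share, r was 0.460 for Dnajc3 and 0.416 for Asns, both among these 7. It was 0.511 for Xbp1, which was not among them. The share of all genes over 0.5 after that removal was not computed. The genes most like Atf4 were Txn1 (r = 0.782), Rrad (0.747), Fkbp1b (0.743), Lasp1 (0.736), Zfp408 (0.730), Coq6 (0.728), Irf2bp2 (0.726), Arf6 (0.725), Tbc1d22b (0.718) and Cnpy4 (0.716). Herpud1, known as a target of both the ATF6 and the PERK arm, ranked 13 (r = 0.706), and 3 of the 34 members (8.82%) had r over 0.5 with Atf4, against 2.6% of all genes. These 3 were Herpud1, Sesn2 (0.551) and Atf3 (0.523), and Atf3 was among the tested members only through HFD NoDS. After removal of the complexity share, r was 0.713 for Herpud1, 0.452 for Sesn2 and 0.704 for Atf3. Hyou1 and Ppp1r15a, at 0.487 and 0.449 before, then each had 0.567.

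Promoter sequences are shown for genes of these relations, because motifs named after the response lie in some of them. RefSeq promoters (GRCm38.p6, 250 bases before to 50 after the start) were matched for 31 of the 36 members, with 33 promoters. Atf6, Hyou1, Manf, Derl1 and Ppp1r15b had no entry. The ER stress element, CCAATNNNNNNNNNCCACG on either strand, was present in 8 members (Hspa5, Hsp90b1, Calr, Canx, Pdia6, Dnajc3, Creld2 and Syvn1), 24.2% of the member promoters against 0.119% of all 32851 promoters. The short XBP1 site TGACGTGG was in 0 member promoters and 0.676% of all. The ATF4 composite element TGATGNAAN was in 5 members (Atf3, Herpud1, Trib3, Chac1 and Asns), 15.2% of member promoters against 3.95% of all. These members were chosen as known genes of the response, and the motifs were defined from promoters of such genes, so the shares are a description only. The promoters of Hspa5 (chr2:34771840-34772139, plus strand), Hsp90b1 (chr10:86705395-86705694, minus strand) and Calr (chr8:84846882-84847181, minus strand) follow with the ER stress element in capitals, which Hsp90b1 holds 2 times, and those of Herpud1 (chr8:94386179-94386478, plus strand) and Asns (chr6:7693160-7693459, minus strand) with the ATF4 composite element in capitals. Where the match lies on the other strand, the capitals show its reverse complement.
Hspa5: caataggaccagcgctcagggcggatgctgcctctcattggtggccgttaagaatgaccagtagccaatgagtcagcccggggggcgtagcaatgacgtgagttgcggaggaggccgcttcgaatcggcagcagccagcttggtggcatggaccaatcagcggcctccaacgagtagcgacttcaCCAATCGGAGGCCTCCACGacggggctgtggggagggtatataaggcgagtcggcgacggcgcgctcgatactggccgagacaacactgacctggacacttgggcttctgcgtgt
Hsp90b1: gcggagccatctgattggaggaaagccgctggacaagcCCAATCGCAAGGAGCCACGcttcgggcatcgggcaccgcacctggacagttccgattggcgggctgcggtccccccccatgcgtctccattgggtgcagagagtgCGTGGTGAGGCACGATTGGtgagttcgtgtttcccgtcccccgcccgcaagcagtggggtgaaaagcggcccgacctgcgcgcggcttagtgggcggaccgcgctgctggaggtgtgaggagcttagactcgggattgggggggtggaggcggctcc
Calr: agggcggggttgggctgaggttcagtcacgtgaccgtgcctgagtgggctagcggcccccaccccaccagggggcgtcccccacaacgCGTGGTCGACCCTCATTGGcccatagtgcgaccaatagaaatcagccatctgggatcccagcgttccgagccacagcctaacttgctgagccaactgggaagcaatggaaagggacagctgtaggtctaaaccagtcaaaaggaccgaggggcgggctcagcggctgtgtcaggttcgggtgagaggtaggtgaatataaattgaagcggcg
Herpud1: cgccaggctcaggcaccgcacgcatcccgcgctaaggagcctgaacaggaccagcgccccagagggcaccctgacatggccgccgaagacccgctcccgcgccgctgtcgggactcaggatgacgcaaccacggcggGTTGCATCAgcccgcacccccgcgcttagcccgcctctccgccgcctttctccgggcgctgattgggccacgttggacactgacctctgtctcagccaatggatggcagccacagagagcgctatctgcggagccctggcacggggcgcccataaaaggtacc
Asns: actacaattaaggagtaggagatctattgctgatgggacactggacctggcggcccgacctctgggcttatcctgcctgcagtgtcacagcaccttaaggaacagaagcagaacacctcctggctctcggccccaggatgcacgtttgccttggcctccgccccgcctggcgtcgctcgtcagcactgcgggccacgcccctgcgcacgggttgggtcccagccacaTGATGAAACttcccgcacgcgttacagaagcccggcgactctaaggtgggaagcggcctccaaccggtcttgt

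The members with the ER stress element had r with Hspa5 of 0.921 (Hsp90b1), 0.712 (Canx), 0.542 (Dnajc3), 0.297 (Pdia6), −0.0594 (Creld2), −0.218 (Calr) and −0.670 (Syvn1). Those with the ATF4 composite element had r with Atf4 of 0.706 (Herpud1), 0.523 (Atf3), 0.482 (Trib3, 0.252 without the libraries of low complexity), 0.325 (Chac1) and −0.505 (Asns). A match says only that the letters are present in this window.

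Other genes of the ER were examined as lists. Of 138 tested genes of folding and oxidation, translocation, degradation, the ATF4 program, and sensing or processing, 0 were called with edgeR in any of the 8 comparisons. In RC NoDS v HFD NoDS, 13 (9.42%) had an unadjusted p under 0.05, against 7.41% of all genes, and in RC → HFD v HFD → RC 4 (2.9%) against 5.35%. A week of HFD gave 7 (5.07%) against 6.51% and a week of chow 15 (10.9%) against 7.93%. There were 7 (5.07%) for the current diet against 5.22%, 10 (7.25%) for the earlier diet against 7.27%, 12 (8.7%) for the interaction against 8.84% and 11 (7.97%) for all groups against 7.97%. In the ATF4 program list, 9 of 39 genes (23.1%) were under 0.05 for the interaction, 3 positive and 6 negative, and the median interaction was −0.048. The same list had 7 (17.9%) after a week of chow, 4 higher and 3 lower in HFD → RC, and 2, 3, 2, 2, 4 and 5 in the other comparisons. The folding list had 4, 0, 3, 3, 3, 2, 1 and 2 of 32, the translocation list 1, 0, 2, 1, 0, 2, 1 and 1 of 20, the degradation list 3, 0, 0, 2, 1, 0, 0 and 0 of 24, and the sensing list 3, 1, 0, 2, 1, 2, 1 and 3 of 23, in the order of comparisons given. The 2 genes of each list with the smallest p were as follows in HFD NoDS relative to RC NoDS. Lars and Iars, aminoacyl-tRNA synthetase genes of the ATF4 program, had log2 fold changes of −0.46 (SE 0.12, adjusted p = 0.457) and −0.18 (SE 0.084, adjusted p = 0.657). Nucb1 and Rcn2, which encode calcium-binding proteins, had 0.22 (SE 0.072, adjusted p = 0.640) and −0.18 (SE 0.069, adjusted p = 0.640). Spcs3 of the signal peptidase and Srprb of the signal recognition receptor had −0.30 (SE 0.14, adjusted p = 0.657) and 0.21 (SE 0.11, adjusted p = 0.672). Aup1 and Faf2 of the degradation list had 0.22 (SE 0.089) and 0.17 (SE 0.077), both with an adjusted p of 0.657. Eif2ak2, which encodes the eIF2α kinase PKR, had −0.72 (SE 0.24), and Nfe2l2, which encodes the oxidative stress factor NRF2, had 0.43 (SE 0.16), both with an adjusted p of 0.640. Between the switched groups (HFD → RC minus RC → HFD), the corresponding genes were Slc6a9 (0.26) and Bbc3 (−0.60), Ppib (0.16) and Creld1 (−0.13), Sec11a (−0.21) and Srprb (0.19), Ubxn8 (0.27) and Ube2j2 (−0.11), and Eif2b5 (0.19) and Bcap31 (0.20), with adjusted p of 0.899 or more. The smallest adjusted p of the interaction was that of Mbtps1, the protease that makes the first cut in ATF6 (0.30, SE 0.089, adjusted p = 0.246), and Slc6a9, a glycine transporter gene, had −0.47 (SE 0.15, adjusted p = 0.275). Of the 20 genes of translocation and signal peptide cleavage, 18 had negative fold changes in RC → HFD relative to RC NoDS (median −0.084), where 49.8% of all genes were positive. The negative ones numbered 13 in RC NoDS v HFD NoDS, 13 in HFD NoDS v HFD → RC, 10 in RC → HFD v HFD → RC, 12 for the current diet, 15 for the earlier diet and 3 for the interaction.

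The 23 cytosolic chaperones also had 0 called in each comparison, with 5, 2, 1, 1, 1, 5, 0 and 2 under an unadjusted p of 0.05. Those 5 were 21.7% of the list, against 7.41% of all genes in RC NoDS v HFD NoDS, where all 5 were higher in HFD NoDS, and 7.27% for the earlier diet, where 4 were positive and 1 negative. Cryab had 0.60 for the earlier diet (SE 0.15, adjusted p = 0.192), and Hspa1b had 0.68 in HFD NoDS relative to RC NoDS (SE 0.20, adjusted p = 0.607). As signs of forced wakefulness and handling, 11 immediate early genes and 12 glucocorticoid-responsive genes were tested, with 0 called in each comparison. Junb had 0.42 in HFD NoDS relative to RC NoDS (SE 0.16, adjusted p = 0.640), and the median of the immediate early genes was 0.092. Egr1 had −0.27 for the current diet (SE 0.091, adjusted p = 0.769) and Arc had −0.82 for the interaction (SE 0.28, adjusted p = 0.332). In the order of comparisons given, 1, 2, 0, 2, 2, 0, 1 and 2 immediate early genes and 0, 3, 2, 2, 2, 1, 0 and 3 glucocorticoid-responsive genes had an unadjusted p under 0.05. All 12 glucocorticoid-responsive genes were negative for the current diet (median −0.18, against −0.00078 for all genes), with Mt2 at −0.26 (SE 0.085, adjusted p = 0.745). An unadjusted p under 0.05 was found for 2 of them, against 5.22% of all genes. Between the switched groups 11 of the 12 were higher in HFD → RC (median 0.19, against 0.00012 for all genes), and Sgk1 had 0.62 (SE 0.20, adjusted p = 0.789). Of these 11, 3 had an unadjusted p under 0.05, against 5.35% of all genes in either direction. Summed reads of the 12 genes were 12650 to 18684 in RC NoDS, 12923 to 15959 in RC → HFD, 12823 to 17654 in HFD → RC and 12001 to 16839 in HFD NoDS, with Mt1 the most abundant.

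Markers of other cells differed between some groups that these comparisons use. Of all genes tested, 5.22% (current diet) to 8.84% (interaction) had an unadjusted p under 0.05 with edgeR, as given above by comparison. All 10 oligodendrocyte markers were higher in HFD NoDS than in RC NoDS, 9 with an unadjusted p under 0.05 and 0 called, and 8 were under 0.05 and higher in HFD → RC than in RC → HFD. For the earlier diet all 10 were positive and under 0.05 (median 0.57), and 2 were called, against a called share of 0.0705% of all genes. Their summed reads, of which Mbp was the most abundant, were 38543, 44598, 55338, 39119 and 57364 in RC NoDS, 59265, 100428, 53801, 97611 and 46300 in HFD NoDS, 105309, 140915, 81292, 47049 and 65367 in HFD → RC, and 44837 to 65636 in RC → HFD (median 51523). All 10 microglial markers were also higher in HFD NoDS than in RC NoDS, 4 of them under 0.05, with sums of 6288 to 7759 in RC NoDS and 7221 to 8926 in HFD NoDS and Csf1r the most abundant. None of these lists had a marker at 0 in any library. Their part in the values of Atf3, Ppp1r15a, Sdf2l1, Psat1 and Canx, and of cytosolic chaperones such as Cryab, was not tested.

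All 10 tanycyte markers were lower in RC → HFD than in RC NoDS, 7 of them with an unadjusted p under 0.05 and 0 called. A positive interaction was found for 23 of the 35 ER stress response genes and for all 10 of these markers. Their sums were 12264, 11284, 9322, 12596 and 12696 in RC NoDS, 5788 to 11051 in RC → HFD (median 9098), 8284, 11173, 7171, 9221 and 9687 in HFD → RC, and 11195, 8656, 12255, 13276 and 12366 in HFD NoDS, with Col23a1 the most abundant and no marker at 0. The 6 tested blood markers were lower in RC → HFD than in RC NoDS, 5 of them with an unadjusted p under 0.05 and 0 called, and Hbb-b1 was the most abundant. All 6 had an unadjusted p under 0.05 and were higher in HFD → RC than in RC → HFD (median log2 fold change 0.91), and all 6 did so with negative values for the current diet (median −0.80), again with 0 called. All 6 were also lower in HFD NoDS than in RC NoDS (median −0.65), 1 of them with an unadjusted p under 0.05. Pituitary markers summed to 122 to 3261 reads per library, with Cga the most abundant by its mean. The highest sum was that of HFD → RC replicate 13. In that group Cga reached 394 reads (median 73) and Gh 2003 (median 1). Of the 10 neuronal markers, 7 were higher and 3 lower in HFD NoDS than in RC NoDS. An unadjusted p under 0.05 was found for 5 of the higher ones. In RC → HFD relative to RC NoDS, 9 were higher and 1 lower, 5 of the higher ones under 0.05. For the interaction 8 were negative and 2 positive, 4 of the negative ones under 0.05. The part of these markers in the values of the ER genes was not tested.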

How the data were processed

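Read counts per gene of 21 libraries were used as deposited. The submitters' processing notes name mm9, STAR 2.5.1b and Picard 2.7.1, and the authors' PORT pipeline removed ribosomal and mitochondrial reads and re-sampled the libraries to a common depth before the count table was made. The reads carry no molecular identifiers, so a count has counting error only as a lower limit of its error.

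The members and lists were chosen with earlier results of these data known. Genes averaging at least 50 reads (12768) were tested with edgeR's quasi-likelihood test with TMM normalization and 1 mean per group. The comparisons were the groups without a switch (RC NoDS and HFD NoDS), the switched groups (RC → HFD and HFD → RC), each switched group against the group that stayed on its first diet, current diet, earlier diet, their interaction, and all 4 groups. P values were adjusted by Benjamini-Hochberg over all genes tested and a gene was called under 0.15. Each library pools 2 mice, so p measures spread between pools. Library values were given for the 3 members with the smallest unadjusted p in each comparison and for Hspa5, Xbp1, Atf4, Ddit3 and Trib3. For RC → HFD the range and median were given in their place. The 2 genes with the smallest p of each other ER list were named for the first 2 comparisons. Co-variation used log2 CPM with group means removed, 100000 permutations and adjustment over 16 relations. Alternatives were DESeq2, limma-voom, limma-trend, other filters, normalizations, dispersion and thresholds, reads summed by symbol, only the groups compared, a complexity covariate and each library left out. Leaving out the 4 libraries of low complexity was added after seeing the data. No 2 libraries of a group were identical (45 pairs, chi-square per degree of freedom 6.88 to 42.0). Of marker lists without counts of calls above, endothelial, choroid and ependymal, and pituitary markers had 0 called in each comparison. Of 10 astrocyte markers, 1 was called for the earlier diet and among all 4 groups. Of 10 ventral hypothalamus markers, 0 to 3 were called, the most (3) in RC NoDS v HFD NoDS, for the current diet and among all 4 groups. Over all genes tested, 0.0783% were called in RC NoDS v HFD NoDS, 0.047% for the current diet, 0.0705% for the earlier diet and 0.149% among all 4 groups.

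Tools were R 4.3.3, edgeR 4.0.16, limma 3.58.1, DESeq2 1.42.0, Python 3.11.15, numpy 2.4.6, pandas 2.3.3 and matplotlib 3.10.9.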

Additional observations from a re-analysis of the deposited data

Results flagged for a closer look

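Within each group, the library farthest from the others was examined for each member, in 144 sets of libraries, of which about 1 in 20 would stand out by chance, and 8 did. Pdia6 had 3689 reads in HFD → RC replicate 14, the lowest of its group (next 4048). Herpud1 had 2137 reads in HFD NoDS replicate 24, the highest (next 1983). Sel1l had 4334 reads in HFD → RC replicate 16, the highest (next 3855), and 3239 in HFD NoDS replicate 20, the lowest (next 3783). Edem1 had 359 reads in RC NoDS replicate 6 (next 309) and 589 in HFD NoDS replicate 20 (next 381), both the highest. Derl1 had 1652 reads in HFD → RC replicate 17, the lowest (next 1872). Ppp1r15b had 1387 reads in RC NoDS replicate 2, the highest (next 1215). The cause was not tested.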

How the results depend on the processing

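No member was called under any alternative. The median interaction of the members was 0.054 and became −0.036 with the complexity covariate. With single libraries left out it ran from −0.0001 to 0.0789. The other medians then ran from 0.013 to 0.0788 in RC NoDS v HFD NoDS and −0.0145 to 0.0215 between the switched groups. They ran from −0.0393 to 0.0208 in RC NoDS v RC → HFD and −0.0455 to 0.00209 in HFD NoDS v HFD → RC. For the current diet the range was −0.0287 to 0.0159 and for the earlier diet 0.00502 to 0.0294. Of the 16 relations, 2 had an adjusted p under 0.15, against 1 without the 2 farthest libraries, 1 after the complexity covariate, 1 without the libraries of low complexity, 3 with group means not removed (where Atf4 and Trib3 had an adjusted permutation p of 0.104 and Atf4 and Sesn2 of 0.0358), and 1 to 3 with single libraries left out. The fold change of Atf4 in RC → HFD v HFD → RC (0.15) was −0.010 without the libraries of low complexity, and that of Hspa5 in RC NoDS v HFD NoDS (−0.074) was 0.019 with the covariate. Leaving out single libraries, the fold change in RC NoDS v HFD NoDS ran from 1.20 to 1.74 for Atf3, 0.37 to 0.51 for Ppp1r15a and 0.29 to 0.43 for Sdf2l1, and the interaction of Edem1 from 0.42 to 0.79. Numbers of genes called, in the order of comparisons given, were 10 (6 to 17 with other settings, 5 to 14 with single libraries left out), 1 (0 to 5, 1 to 41), 5 (4 to 96, 4 to 11), 9 (1 to 44, 1 to 13), 6 (4 to 12, 4 to 10), 9 (2 to 35, 2 to 70), 4 (0 to 250, 0 to 124) and 19 (9 to 133, 9 to 80). The cause was not tested. No paired analysis was possible because the groups share no replicate numbers.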
